A study of Mus musculus with 18 samples.

Results

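The clustered protocadherin genes of B16 cells, a mouse melanoma line, were followed in total RNA of 3 groups: cells given PB-4 (sodium 4-phenylbutanoate), cells given ATRA (all-trans retinoic acid) and Control cells, with 3 libraries in each group. All groups share the same line, the labels name no added allele, and they give mouse skin as the source. The sources used here do not give the dose or duration of the treatments that were sequenced. The members were taken by name, as every gene of the count table whose symbol begins with Pcdha, Pcdhb or Pcdhg, which gave 58 genes of 46068 named rows: 14 in the alpha, 22 in the beta and 22 in the gamma cluster.

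Clustered protocadherins are cadherin-like cell surface proteins that bind copies of the same isoform on a neighbouring cell, and they are best known in neurons, where each cell switches on its own mixture of isoforms and so can tell its own branches from those of other cells. In the alpha and gamma clusters each variable exon has its own promoter and is spliced to constant exons shared by the whole cluster, whereas each beta gene stands alone without a shared constant part. Promoter choice depends on promoter methylation and on looping by CTCF and cohesin between a chosen promoter and distant enhancers.

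In the mouse reference annotation (GRCm38.p6, the build of the count table) the clusters lie one after the other on chromosome 18, with the alpha genes between 36930285 and 37188897, the beta genes between 37264998 and 37521419 and the gamma genes between 37661775 and 37841873. Pcdhgb8 is annotated there as a transcribed pseudogene. Because isoforms of the alpha and gamma clusters have constant exons in common, and because neighbouring paralogs resemble each other, the split of reads among isoforms is uncertain; the sources used here do not say how the counter treated such reads. The annotated readthrough genes Gm37013, Gm38666 and Gm38667 received 0, 2 and 0 counts over the 9 libraries.

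Library totals lay between 13928215 and 35832073 counts with PB-4, between 12632669 and 36176443 counts with ATRA and between 17006638 and 32633226 counts in Control, and in each group replicate 3 was the shallowest. Nothing in the labels says that the replicates were separate cultures, so the p-values measure the spread between these samples, which may be technical. Melanocyte genes were abundant in every library, with summed levels of 9 markers (Mitf, Sox10, Tyr and others) of 6865 to 8428 CPM (counts per 1000000 of the scaled library total) with PB-4, 8049 to 10560 CPM with ATRA and 12459 to 15062 CPM in Control, whereas 4 keratinocyte markers summed to at most 0.135 CPM in any library.

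Replicate 3 stood apart for the protocadherins. The log2 CPM of replicate 3 minus the mean of replicates 1 and 2 had a median over the 22 gamma genes of -1.38 with PB-4, -1.26 with ATRA and -2.07 in Control, whereas the median over all 20211 genes was -0.03, -0.02 and 0.00 in the same groups. Of the 51 testable members, 36 were lower in replicate 3 of all 3 groups and 3 (Pcdhb21, Pcdhb22 and Pcdhgb2) were higher in all 3. For this reason the counts of calls are also given with the replicate number as a block, and those over the members with replicates 1 and 2 alone.

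**Figure D1:**
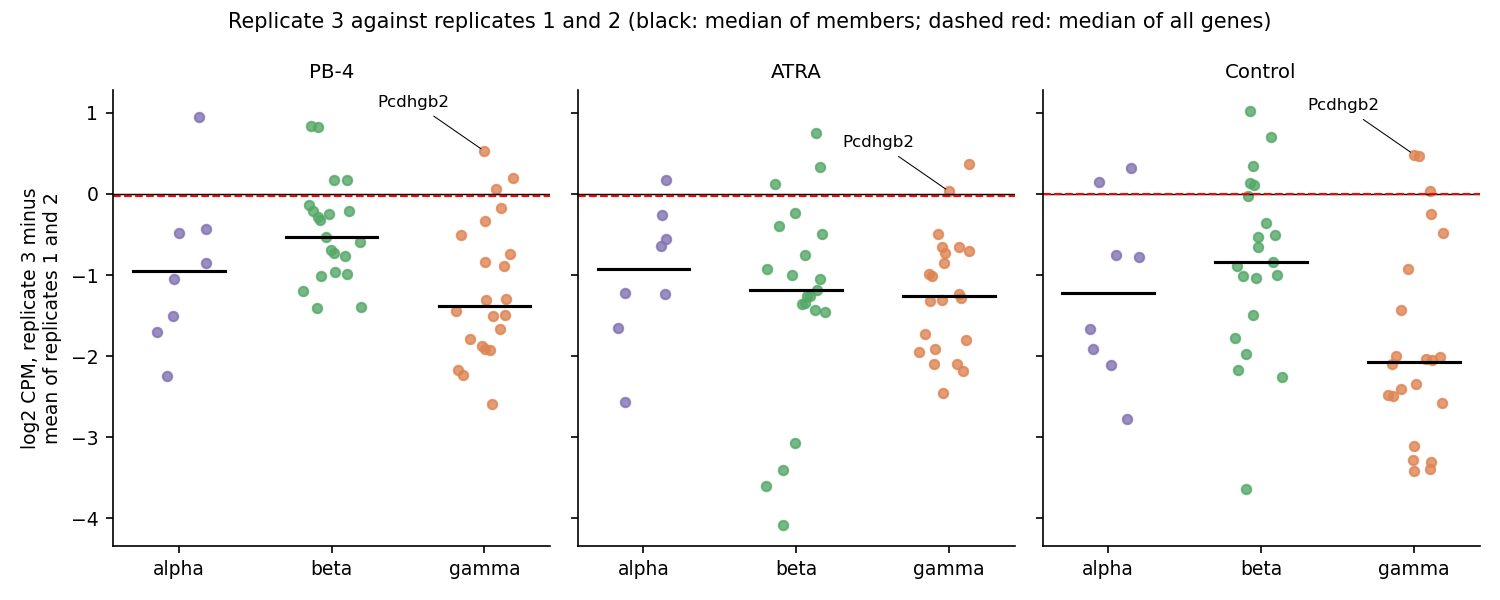
Each point is 1 of the 51 testable members, and the vertical axis is its log2 CPM in replicate 3 minus the mean of replicates 1 and 2 of the same group (PB-4, ATRA, Control); black bars are medians of the members of a cluster and the dashed red line is the median of all genes. Most members lie below 0 in all 3 groups (gamma medians -1.38, -1.26 and -2.07), while Pcdhgb2 lies at 0.53, 0.03 and 0.49.

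Of the 58 members, Pcdha1, Pcdha4, Pcdha6, Pcdha7 and Pcdhb1 had 0 counts in all 9 libraries. A count of 0 over the 3 libraries of a group allows a level of up to 0.0378 CPM with PB-4, 0.0383 CPM with ATRA and 0.0406 CPM in Control (3 counts over the group), and covers counting error only. Pcdha2 had 6 counts, all in PB-4 replicate 1, and Pcdha5 had 3 counts in PB-4 replicate 1 and 4 counts in ATRA replicate 1, so neither reached the 10 counts over 6 libraries required for a test. The remaining 51 members (8 alpha, 21 beta, 22 gamma) were tested in each comparison.

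Gamma and beta transcripts made up nearly all clustered protocadherin counts, and alpha transcripts were rare. The summed level of the alpha cluster was 13.3, 10.2 and 5.62 CPM in the PB-4 libraries, 2.71, 2.52 and 0.602 CPM in the ATRA libraries and 2.31, 2.72 and 0.963 CPM in the Control libraries. Every PB-4 library was above every ATRA and every Control library. The ratio of means was 4.85 for PB-4 over Control (5.73, 3.75 and 5.84 within replicates 1, 2 and 3) and 4.98 for PB-4 over ATRA, while ATRA over Control was 0.97.

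The summed beta level differed less, with 86.9 ± 23.2 CPM for PB-4, 67.0 ± 24.8 CPM for ATRA and 88.2 ± 24.1 CPM for Control (SD, n = 3 each). The ranges of the 3 groups overlapped. Within replicates 1, 2 and 3 the beta ratio was 1.01, 0.92 and 1.04 for PB-4 over Control and 0.73, 0.90 and 0.61 for ATRA over Control, so ATRA was lower than Control in each of the 3. The summed gamma level was 119 ± 4.65 CPM with PB-4, 81.7 ± 12.8 CPM with ATRA and 108 ± 24.7 CPM in Control (SD, n = 3 each). The PB-4 libraries (114 to 122 CPM) were all above the ATRA libraries (67.2 to 91.4 CPM) and lay within the range of the Control libraries (86.9 to 135 CPM). For PB-4 over Control the gamma ratio ranged from 0.90 in replicate 1 to 1.40 in replicate 3. For ATRA over Control it was 0.64, 0.90 and 0.77 within replicates 1, 2 and 3, again lower with ATRA in each of the 3. Sums over members are descriptions and were not tested.

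**Figure D2:**
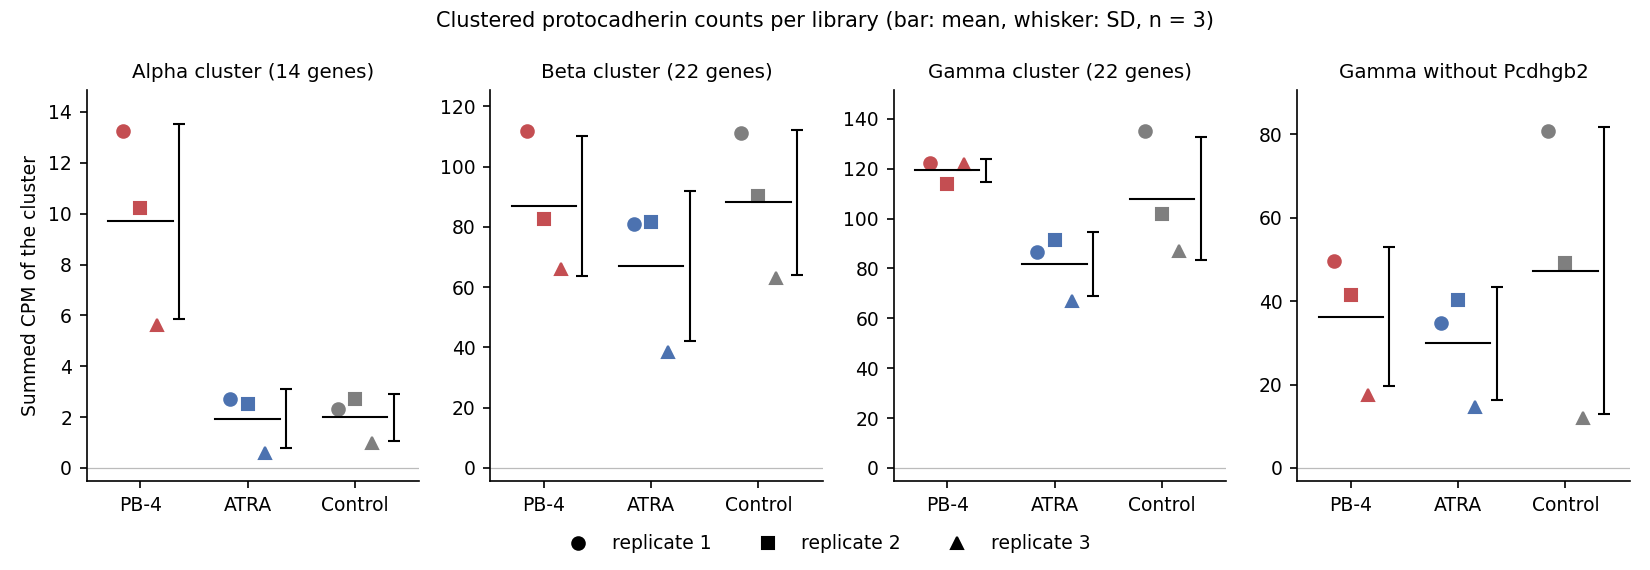
Summed CPM of the alpha, beta and gamma clusters, and of the gamma cluster without Pcdhgb2, in each PB-4, ATRA and Control library; marker shapes are replicates, horizontal bars are means and whiskers are SD (n = 3). The alpha sum is 5.62 to 13.3 CPM with PB-4 against at most 2.72 CPM in any ATRA or Control library, whereas the beta ranges overlap.

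PB-4 against Control asked which genes a deacetylase inhibitor that induces differentiation changes in melanoma cells. In the alpha cluster, all 8 tested isoforms had positive log2 fold changes (median 1.96, against 0.03 over all 19450 genes tested), and Pcdha8 and Pcdha10, alternate isoforms with their own promoters, rose. Over the 3 clusters 4 of 51 members rose, Pcdha8, Pcdha10, Pcdhb8 and Pcdhb9, and 0 fell, while 11.5% of all genes tested rose and 4.59% fell (edgeR quasi-likelihood test, Benjamini-Hochberg adjusted p below 0.05). The share of members that rose, 7.84%, was below that over all genes in this fit. With the replicate block it was 27.5%, near the 23.1% of all genes that rose with the block. At an unadjusted p below 0.05, 9 members were higher and 2 lower. The share of all genes past this unadjusted cut was not taken, so these counts cannot show an excess among members. DESeq2 called 6 members higher and 1 lower, and 3013 and 1392 of all 19450 genes.

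Pcdha8 had 3.33, 2.02 and 1.90 CPM in the PB-4 libraries, against 0.261, 0.538 and 0.193 CPM in the Control libraries. The lowest PB-4 library was above the highest Control library, and the log2 fold change was 2.79 ± 0.59 (SE, edgeR adjusted p = 0.0157). The values rest on 192 counts with PB-4 and 27 counts in Control.

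Pcdha10 had 3.41, 3.08 and 1.76 CPM with PB-4, against 0.747, 0.348 and 0.578 CPM in Control. The groups did not overlap, and the log2 fold change was 2.30 ± 0.53 (SE, edgeR adjusted p = 0.0216). Together with Pcdha8, it held the largest shares of the alpha counts, with 29.1 ± 2.95% (Pcdha10) and 26.2 ± 7.05% (Pcdha8) in the PB-4 libraries (SD, n = 3).

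Pcdhac2, the C-type isoform of the alpha cluster that serotonergic neurons of the mouse need for the even spacing of their axons, had 1.55, 2.25 and 0.609 CPM with PB-4, against 0.411, 0.507 and 0.0642 CPM in Control. The groups did not overlap, but the log2 fold change of 2.08 ± 0.76 did not pass the threshold (SE, edgeR adjusted p = 0.101). With the replicate block it was 2.17 ± 0.59 and did pass (adjusted p = 0.0046). The other C-type alpha isoform, Pcdhac1, rested on 8 counts with PB-4 and 4 counts in Control, and no difference was detectable at this depth.

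Pcdha9 had 1.94, 1.16 and 0.406 CPM in the PB-4 libraries, against 0.261, 0.760 and 0 CPM in the Control libraries. Here the groups overlapped, and the log2 fold change was 1.67 ± 0.99 (SE, edgeR adjusted p = 0.289). It passed with the block, at 1.94 ± 0.72 (adjusted p = 0.034).

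**Figure D3:**
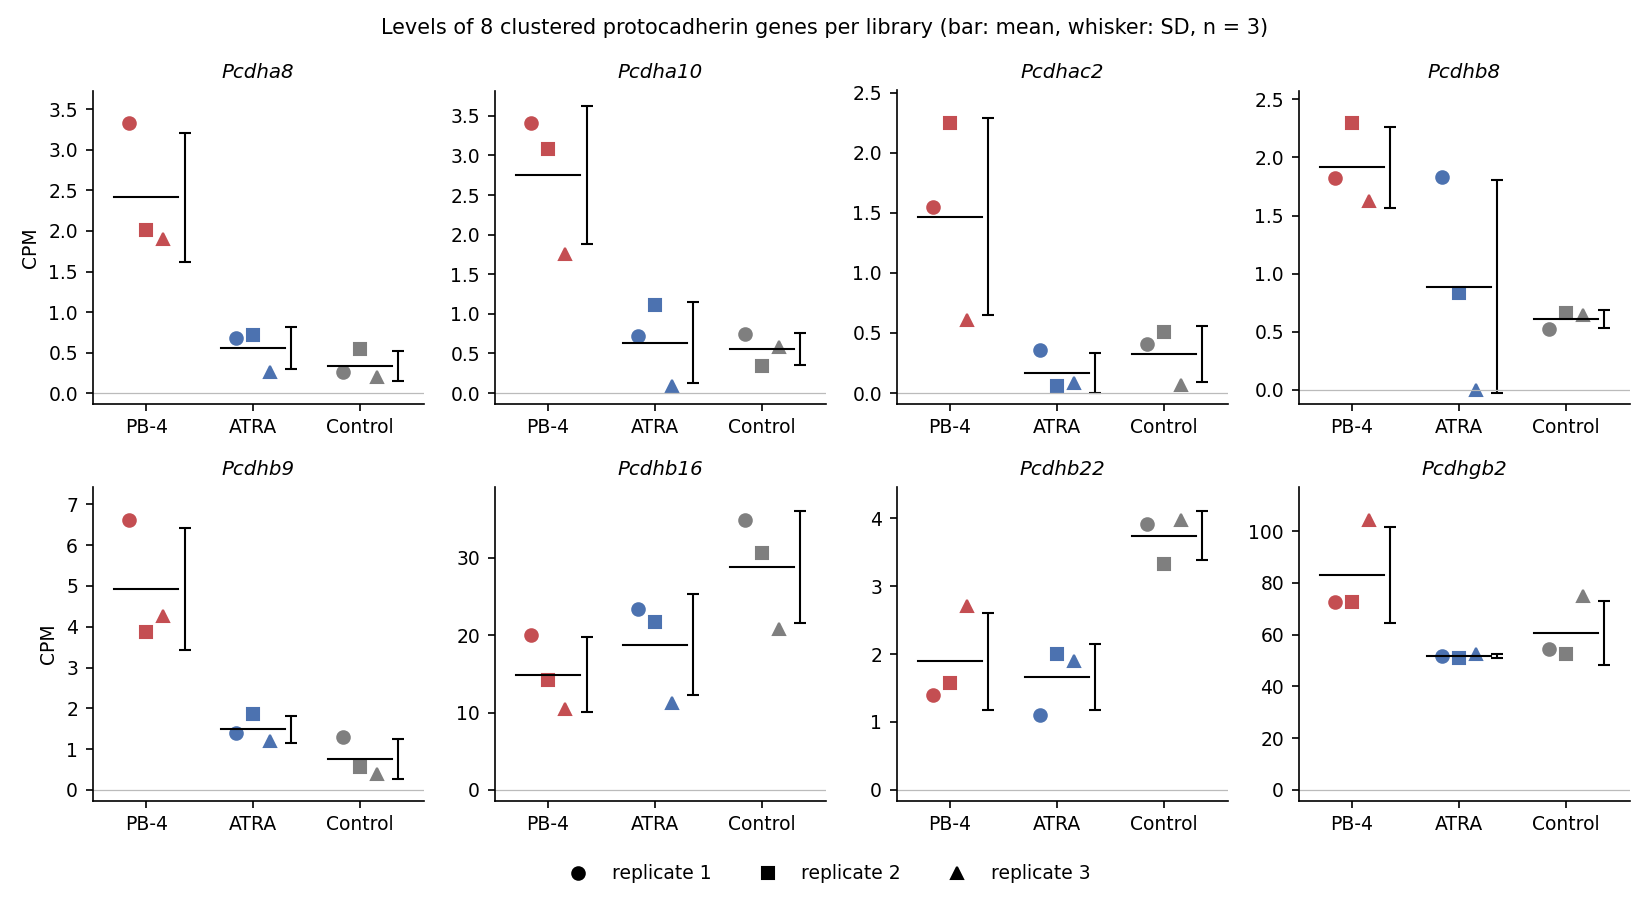
CPM of Pcdha8, Pcdha10, Pcdhac2, Pcdhb8, Pcdhb9, Pcdhb16, Pcdhb22 and Pcdhgb2 in each PB-4, ATRA and Control library; marker shapes are replicates, horizontal bars are means and whiskers are SD (n = 3), and each panel has its own CPM axis. The 3 PB-4 libraries lie above the 3 Control libraries for the 5 genes from Pcdha8 to Pcdhb9 and below them for Pcdhb16 and Pcdhb22.

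In the beta cluster the sum over genes hid changes of opposite sign. Pcdhb9 rose, with 6.63, 3.88 and 4.27 CPM in the PB-4 libraries against 1.31, 0.570 and 0.385 CPM in the Control libraries. The groups were well apart, and the log2 fold change was 2.67 ± 0.57 (SE, edgeR adjusted p = 0.0161) on 384 counts with PB-4 and 59 counts in Control. Pcdhb8 also rose, with 1.82, 2.30 and 1.63 CPM with PB-4 against 0.523, 0.665 and 0.642 CPM in Control, a log2 fold change of 1.64 ± 0.47 (SE, edgeR adjusted p = 0.0456). Both are beta genes and neighbours on the chromosome, since Pcdhb8 ends at 37357610 and Pcdhb9, the next in order, starts at 37400855.

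Pcdhb16, the beta gene with the most counts, had 20, 14.2 and 10.4 CPM with PB-4, against 34.9, 30.7 and 20.8 CPM in Control. Every PB-4 library was below every Control library, though PB-4 replicate 1 and Control replicate 3 nearly met. The log2 fold change of -0.96 ± 0.32 did not pass the threshold (SE, edgeR adjusted p = 0.0793) and was -0.98 ± 0.16 with the replicate block, which did pass (adjusted p = 3.61e-05).

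As a share of the beta counts of its own library, a measure that needs no scaling between libraries, Pcdhb16 held 17.9, 17.2 and 15.8% with PB-4, 28.8, 26.6 and 29.3% with ATRA and 31.4, 34.0 and 33.0% in Control. The 3 groups did not overlap, and replicate 3 did not stand apart in this measure. Pcdhb9 held 5.69 ± 0.92% with PB-4, 2.38 ± 0.71% with ATRA and 0.81 ± 0.32% in Control (SD, n = 3 each). Pcdhb11 held 10.6 ± 0.99% with PB-4, 8.34 ± 1.22% with ATRA and 5.84 ± 0.32% in Control.

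The sign of the beta changes followed chromosomal order. With PB-4 against Control, the 12 genes from Pcdhb2 to Pcdhb13 all had positive log2 fold changes (0.38 to 2.67, median 1.13), and the 9 genes from Pcdhb14 to Pcdhb22 all had negative ones (-1.0 to -0.12, median -0.86). This boundary was chosen after the values were seen, so it is a description with no test. Over the 21 genes Spearman's rho between order and log2 fold change was -0.76 (Pearson's r -0.75), a description across genes that share the same 6 libraries. Scaled by library totals alone, which moved the median of all genes to 0.20, 14 beta genes were positive and 7 negative.

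The summed level from Pcdhb2 to Pcdhb13 was 62.1, 45.7 and 33.3 CPM with PB-4, against 29.0, 24.3 and 12.5 CPM in Control. That from Pcdhb14 to Pcdhb22 was 49.8, 37.1 and 32.6 CPM with PB-4, against 82.1, 66.0 and 50.6 CPM in Control. Within replicates 1, 2 and 3 the ratios were 2.14, 1.89 and 2.66 for the first stretch and 0.61, 0.56 and 0.65 for the second. Both directions were present in each replicate, but the stretches were chosen from the fold changes of these same libraries. Pcdhb2 to Pcdhb13 held 55.5, 55.2 and 50.5% of the beta counts in the PB-4 libraries, 39.0, 39.1 and 25.5% in the ATRA libraries and 26.1, 26.9 and 19.8% in the Control libraries, and PB-4 did not overlap with either of the other groups.

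**Figure D4:**
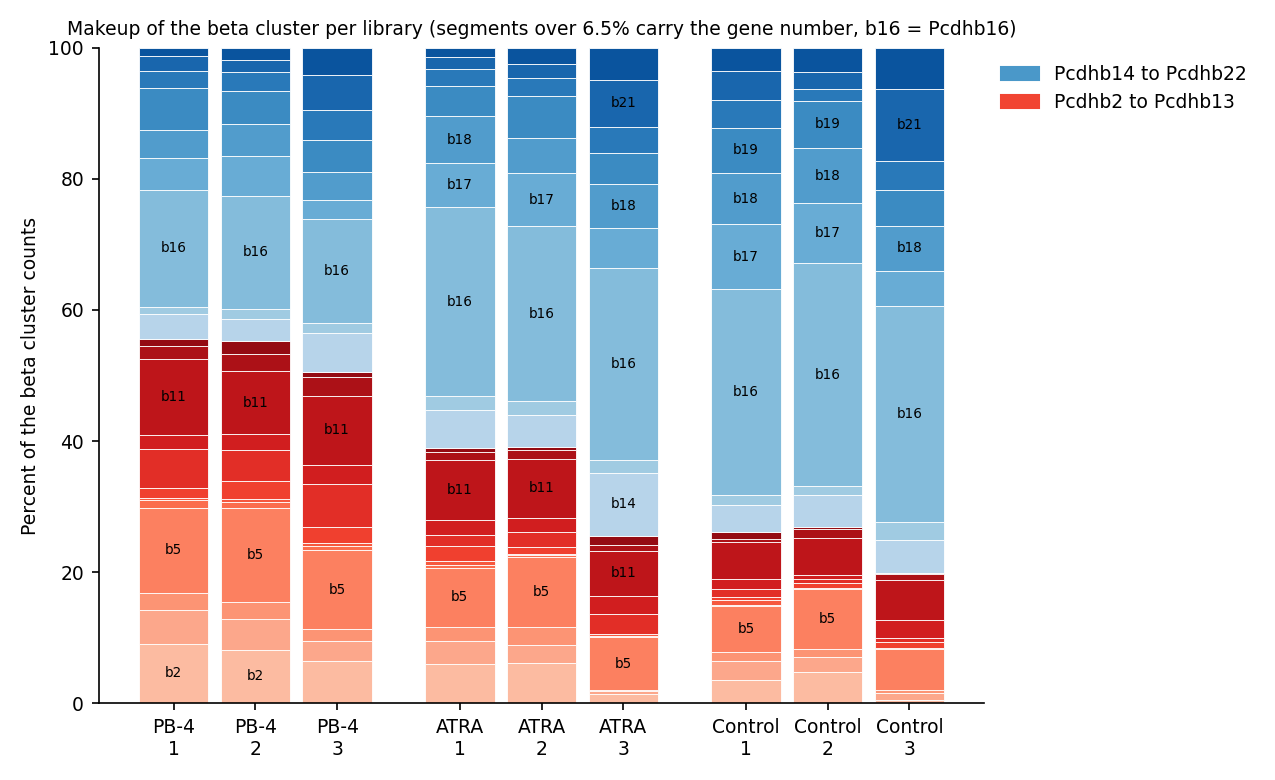
Stacked bars give the percent of the beta cluster counts held by each beta gene in each PB-4, ATRA and Control library, with Pcdhb2 to Pcdhb13 in reds and Pcdhb14 to Pcdhb22 in blues. The red stretch covers 50.5 to 55.5% with PB-4, 25.5 to 39.1% with ATRA and 19.8 to 26.9% in Control, and b16 (Pcdhb16) shrinks to 15.8 to 17.9% with PB-4 against 31.4 to 34.0% in Control.

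The beta genes were ordered in each group by level per length (CPM per kb of annotated gene span). With PB-4, Pcdhb5 was first at 3.24 ± 0.94 CPM per kb, followed by Pcdhb16 at 2.82 ± 0.91 CPM per kb. Their ranges overlapped, but Pcdhb5 was higher in each PB-4 library (4.10 against 3.79, 3.38 against 2.70 and 2.24 against 1.98). With ATRA, Pcdhb16 was first at 3.56 ± 1.25 CPM per kb and Pcdhb5 second at 1.81 ± 0.83 CPM per kb. These ranges overlapped too, but Pcdhb16 was higher in each ATRA library (4.43 against 2.08, 4.12 against 2.47 and 2.14 against 0.876). In Control, Pcdhb16 was first at 5.47 ± 1.38 CPM per kb and Pcdhb17 second at 2.31 ± 1.19 CPM per kb (SD, n = 3 each). Pcdhb16 was above Pcdhb17 in every Control library without overlap, but Pcdhb17 and the third gene, Pcdhb5 at 1.90 ± 0.67 CPM per kb, did not differ beyond their spread.

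Pcdhb5 itself had 14.5, 11.9 and 7.92 CPM with PB-4, against 7.80, 8.33 and 3.98 CPM in Control. The ranges overlapped, since PB-4 replicate 3 was below Control replicate 2, and the log2 fold change was 0.75 ± 0.39 (SE, edgeR adjusted p = 0.228). For Pcdhb11 it was 0.85 ± 0.38 (adjusted p = 0.162), and for Pcdhb17 it was -0.86 ± 0.55 (adjusted p = 0.321).

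Taking the replicate number as a block gave more calls. With it, 14 members rose in PB-4 against Control, while 23.1% of all genes did, and 6 fell, while 21.3% of all genes did (edgeR with the block, adjusted p below 0.05). The 14 were Pcdha8, Pcdha9, Pcdha10, Pcdhac2, Pcdhb2 to Pcdhb6, Pcdhb8, Pcdhb9, Pcdhb11, Pcdhb12 and Pcdhgb2, and they included the 4 members called without the block. The 6 were Pcdhb16, Pcdhb17, Pcdhb18, Pcdhb21, Pcdhb22 and Pcdhgb4. With replicates 1 and 2 alone, 13 rose, while 22.9% of all genes did, and 6 fell, while 16.8% of all genes did.

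By overlap alone, 13 members had all PB-4 libraries above all Control libraries, while 22.3% of all genes did, and 2 (Pcdhb16 and Pcdhb22) had all below, while 14.7% of all genes did. The 4 calls depended on single libraries. Without PB-4 replicate 1, 0 members rose; without Control replicate 2, Pcdha8 alone did; without PB-4 replicate 2, Pcdha8 and Pcdhb9 did; and without Control replicate 1, Pcdha10 and Pcdhb9 did. Pcdhb8 was called in 0 of these 6 fits. Over all genes 2246 rose with every library in place. That number was 1658 without PB-4 replicate 1 and 1306 without PB-4 replicate 2. It was 1229 without Control replicate 1 and 1134 without Control replicate 2, so fewer calls were not particular to the members. With each replicate left out in turn, the log2 fold change stayed between 2.48 and 3.36 for Pcdha8 and between 2.37 and 3.32 for Pcdhb9.

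**Figure D5:**
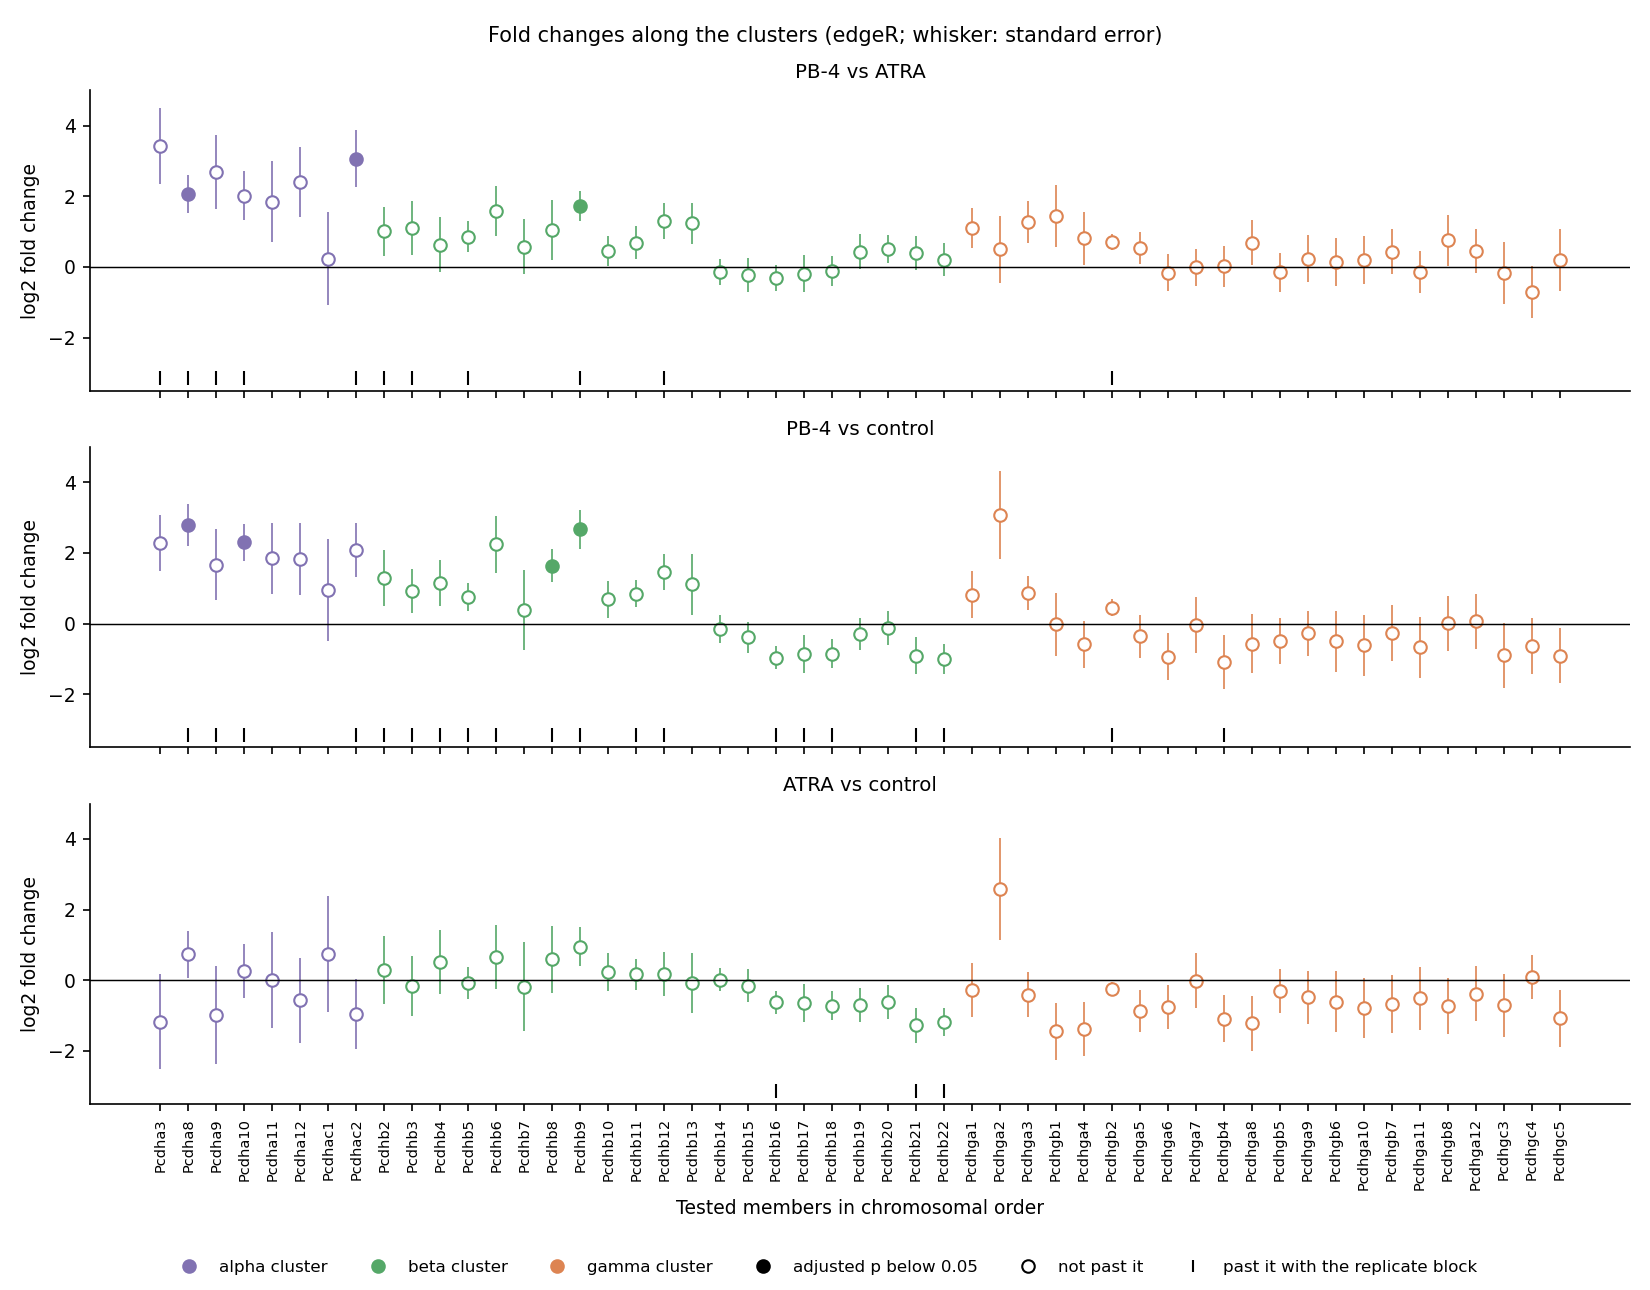
Log2 fold change of each tested member in chromosomal order for PB-4 vs ATRA, PB-4 vs control and ATRA vs control; whiskers are standard errors, filled points have an edgeR adjusted p below 0.05, and ticks at the foot of each panel mark members past that threshold with the replicate block. In PB-4 vs control the alpha genes and Pcdhb2 to Pcdhb13 lie above 0 and Pcdhb14 to Pcdhb22 below it.

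In the gamma cluster 0 of 22 members passed the test for PB-4 against Control. Pcdhgb2, a B-type gamma isoform, held 59.9% of all gamma counts over the 9 libraries. Since the counter's treatment of the shared constant exons is not known, these counts may include reads of other gamma isoforms. The share and level of Pcdhgb2 itself are therefore uncertain. It had 72.5, 72.5 and 104 CPM in the PB-4 libraries, 51.9, 51.0 and 52.5 CPM in the ATRA libraries and 54.3, 52.7 and 74.9 CPM in the Control libraries. Control replicate 3 lay among the PB-4 values, and the log2 fold change of PB-4 over Control was 0.45 ± 0.24 (SE, edgeR adjusted p = 0.233). With the block it was 0.44 ± 0.12 (adjusted p = 0.0039).

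The other 21 gamma genes together had 49.6, 41.6 and 17.6 CPM with PB-4, 34.8, 40.3 and 14.6 CPM with ATRA and 80.8, 49.1 and 12 CPM in Control. Replicate 3 was the lowest library in each group, and the ratio of PB-4 to Control was 0.61 and 0.85 in replicates 1 and 2 and 1.47 in replicate 3. The spread in Control (47.3 ± 34.4 CPM, SD, n = 3) was larger than the difference between the groups. Accordingly Pcdhgb2 held 59.4, 63.6 and 85.6% of the gamma counts with PB-4, against 40.2, 51.8 and 86.2% in Control.

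The next most abundant gamma genes followed the same course. Pcdhga5, an A-type isoform, had 6.20, 3.70 and 2.84 CPM with PB-4, against 9.18, 5.32 and 1.67 CPM in Control. Pcdhga8 had 5.0, 4.13 and 0.948 CPM with PB-4, against 8.10, 5.95 and 0.642 CPM in Control. For both, the Control range enclosed all PB-4 values, and the log2 fold changes of -0.36 ± 0.61 (Pcdhga5) and -0.56 ± 0.85 (Pcdhga8) were smaller than their standard errors. For Pcdhga6 it was -0.94 ± 0.66 (SE, edgeR adjusted p = 0.373).

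Of the 5 gamma genes before Pcdhgb2, Pcdhga1 and Pcdhga3 had log2 fold changes of 0.82 and 0.86, Pcdhgb1 one of -0.03 and Pcdhga4 one of -0.59. Further on, 14 of the 16 genes after Pcdhgb2 had negative values (median -0.53). 0 of these genes passed the test. The remaining gene, Pcdhga2, had a log2 fold change of 3.08 ± 1.25 (SE, edgeR adjusted p = 0.131) on 23 counts with PB-4 and 2 counts in Control. For Pcdhga2 and Pcdhga3 all PB-4 libraries were above all Control libraries, as for 22.3% of all genes. These stretches, too, were chosen after the values were seen.

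The C-type gamma isoforms were rare in B16 cells. Pcdhgc3 averaged 0.432 ± 0.334 CPM with PB-4, 0.482 ± 0.365 CPM with ATRA and 0.816 ± 0.613 CPM in Control (SD, n = 3 each). Pcdhgc4, which supports the survival of interneurons in the mouse, averaged 0.295 ± 0.259 CPM with PB-4, 0.506 ± 0.144 CPM with ATRA and 0.472 ± 0.250 CPM in Control. Pcdhgc5 averaged 0.197 ± 0.039 CPM with PB-4, 0.165 ± 0.10 CPM with ATRA and 0.361 ± 0.204 CPM in Control. The ranges of the groups overlapped for all 3 isoforms, and 0 of the 3 passed a test in any comparison.

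ATRA against Control asked the same question of a retinoid. Of 51 members 0 rose and 0 fell, while 0.441% of all 17911 genes tested rose and 0.625% fell (edgeR, adjusted p below 0.05). At an unadjusted p below 0.05, 0 members were higher and 2 lower, again without a share over all genes to set beside them. DESeq2 called 0 members higher and 1 lower (Pcdhb22), and 553 and 695 of all 17911 genes. With the replicate block 0 members rose, while 7.53% of all genes did, and 3 fell, Pcdhb16, Pcdhb21 and Pcdhb22, while 10.8% of all genes did. With replicates 1 and 2 alone 0 rose, while 17.8% of all genes did, and 10 fell, while 19.2% of all genes did.

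Pcdhb22, the last gene of the beta cluster, had 1.11, 2.00 and 1.89 CPM in the ATRA libraries, against 3.92, 3.33 and 3.98 CPM in the Control libraries. All ATRA libraries were below all Control libraries, which held for 2 members (Pcdhb22 and Pcdhgb2) and 10.5% of all genes, while 0 members had all ATRA libraries above, as 10.8% of all genes had. The log2 fold change was -1.19 ± 0.40 (SE, edgeR adjusted p = 0.205) and -1.22 ± 0.34 with the block (adjusted p = 0.0408). The PB-4 libraries held 1.40, 1.58 and 2.71 CPM, a log2 fold change against the same Control libraries of -1.0 ± 0.43 (adjusted p = 0.147).

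Pcdhb16 had 23.4, 21.7 and 11.3 CPM with ATRA, and the ATRA mean of 18.8 CPM lay between the means of 14.9 CPM with PB-4 and 28.8 CPM in Control. The log2 fold change against Control was -0.63 ± 0.33 (SE, edgeR adjusted p = 0.401), or -0.66 ± 0.15 with the block (adjusted p = 0.0194). From Pcdhb14 to Pcdhb22, 8 of 9 log2 fold changes of ATRA over Control were negative (median -0.65), and from Pcdhb2 to Pcdhb13, 8 of 12 were positive (median 0.21). In the gamma cluster 20 of 22 were negative (median -0.65). Since the ATRA and PB-4 comparisons use the same Control libraries, their values are set side by side only.

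PB-4 against ATRA compared the treatments directly, without the Control libraries, on the PB-4 and ATRA libraries already described. Of 51 members 3 rose, Pcdha8, Pcdhac2 and Pcdhb9, and 0 fell, while 10.3% of all 19521 genes tested rose and 1.94% fell (edgeR, adjusted p below 0.05). At an unadjusted p below 0.05, 9 members were higher and 0 lower, here too without a share over all genes, so no excess among members can be read from them. DESeq2 called 6 members higher and 0 lower, and 2678 and 795 of all 19521 genes. All 8 tested alpha isoforms had positive log2 fold changes (median 2.24, against 0.04 over all genes), as had all 12 genes from Pcdhb2 to Pcdhb13 (median 1.03). Pcdha3 and Pcdha12, with 4 and 7 counts with ATRA, reached the 10 counts for a test only through PB-4, so their sign is no support. From Pcdhb14 to Pcdhb22, 4 were positive and 5 negative (median -0.11). Both stretches were chosen on values that include these PB-4 libraries.

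Pcdha8 had 0.685, 0.721 and 0.258 CPM in the ATRA libraries, all below the PB-4 libraries given above, with a log2 fold change of 2.07 ± 0.54 (SE, edgeR adjusted p = 0.0374). Pcdhac2 had 0.359, 0.0555 and 0.0860 CPM with ATRA, again all below PB-4, with a log2 fold change of 3.07 ± 0.81 (adjusted p = 0.0402) on 136 counts with PB-4 and 14 with ATRA. Pcdhb9 had 1.40, 1.86 and 1.20 CPM with ATRA and a log2 fold change of 1.74 ± 0.42 (adjusted p = 0.0287). For these 3 genes the lowest PB-4 library was above the highest ATRA library.

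With the block, 11 members rose in PB-4 against ATRA, while 18.7% of all genes did, and 0 fell, while 11.1% of all genes did. The 11 were Pcdha3, Pcdha8, Pcdha9, Pcdha10, Pcdhac2, Pcdhb2, Pcdhb3, Pcdhb5, Pcdhb9, Pcdhb12 and Pcdhgb2. With replicates 1 and 2 alone 11 rose, while 21.1% of all genes did, and 0 fell, while 16.6% of all genes did. With all libraries in place and no block, Pcdhgb2 had a log2 fold change of 0.72 ± 0.23 (SE, edgeR adjusted p = 0.0728), although its PB-4 libraries were all above its ATRA libraries. By overlap alone, 13 members had all PB-4 libraries above all ATRA libraries, while 20.5% of all genes did, and 0 had all below, while 13.5% of all genes did. Leaving out PB-4 replicate 1, PB-4 replicate 2 or ATRA replicate 3 left 0 calls, without ATRA replicate 1 only Pcdhac2 was called, and without ATRA replicate 2 Pcdha3 and Pcdha9 were called instead. Over all genes 2006 rose with every library in place. In the same order of fits that number was 1425, 1171, 1898, 1096 and 1275, so fewer calls were not particular to the members.

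Genes known to act on the clusters were read from the same fits, so the shares over all genes given above hold for each list. With PB-4 against Control 11.5% of all genes rose and 4.59% fell, or 23.1% and 21.3% with the block. With ATRA against Control 10.8% of all genes fell with the block. Of 11 genes of the list of CTCF, cohesin and cohesin regulators, not all of which build loops, 4 fell with PB-4 against Control: Smc1a (-1.40 ± 0.25) and Rad21 (-0.86 ± 0.19), subunits of the cohesin ring, and Stag1 (-1.16 ± 0.34) and Stag2 (-1.15 ± 0.22), which attach to it (log2 fold change ± SE, edgeR adjusted p 0.00754, 0.0182, 0.0491 and 0.00966). The list's median was -0.90, and with the block 10 of 11 fell. Ctcf itself had 73.4, 63.1 and 46.2 CPM with PB-4, against 120.2, 120.0 and 85.6 CPM in Control, and its log2 fold change of -0.84 ± 0.26 did not pass (adjusted p = 0.0576). With ATRA against Control 0 of 11 passed (median -0.72), and 9 fell with the block; between PB-4 and ATRA 0 passed, with or without the block.

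Of 11 genes of a list on silencing of the clusters, 2 fell with PB-4 against Control: Uhrf1 (-1.53 ± 0.32, edgeR adjusted p = 0.0154), which brings the maintenance methyltransferase to newly copied DNA, and Dnmt1 (-1.05 ± 0.24, adjusted p = 0.0205), that methyltransferase. Dnmt1 had 151, 186 and 236 CPM with PB-4, against 347, 371 and 460.0 CPM in Control, with no overlap. Smchd1, a chromatin protein that represses clustered protocadherins in the mouse, had a log2 fold change of -0.73 ± 0.31 (adjusted p = 0.140). In the other comparisons 0 of the 11 passed. With the block, Lrif1, Smchd1 and Trim28 fell as well and Dnmt3a, a de novo DNA methyltransferase, rose with PB-4 against Control. Also with the block, Wiz rose and Smchd1 and Uhrf1 fell with ATRA against Control, and Wiz was lower with PB-4 than with ATRA. Whether any of these genes bears on the protocadherin levels was not tested.

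Outside the clusters, 5 of 8 tested non-clustered protocadherins rose with PB-4 against Control and 0 fell. Pcdh1 had 48.7, 53.1 and 82.9 CPM with PB-4, against 8.32, 7.19 and 12.2 CPM in Control, a log2 fold change of 2.74 ± 0.31 (SE, edgeR adjusted p = 0.0015). Pcdh12, known from endothelium and placenta, rose by a log2 fold change of 2.54 ± 0.34, Pcdh19, mutated in a form of human epilepsy, by 2.20 ± 0.32 and Pcdh17 by 1.5 ± 0.21 (SE). Pcdh15, a tip-link protein of hair cells, had 1.74, 1.16 and 3.45 CPM with PB-4, against 0, 0.0317 and 0 CPM in Control, where a single count stood for the group (adjusted p = 0.0032). The list's median was 2.37, against 0.00 for the 51 clustered members, a description with no test. Pcdh10 and Pcdh15, each with a single count in Control, were tested only because of their PB-4 counts, which raises this median and the count of genes that rose. With the block 6 of 8 rose, Pcdh7 being the addition.

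With ATRA, Pcdh7 fell, with 67.5, 91.4 and 58.4 CPM in the ATRA libraries against 225, 218 and 240.3 CPM in the Control libraries and a log2 fold change of -1.67 ± 0.21 (SE, edgeR adjusted p = 0.0198). The other 5 tested genes of the list did not pass. Among them Pcdh9 had 65.4, 123 and 3.44 CPM with ATRA, against 9.18, 8.87 and 0.257 CPM in Control, higher within each replicate number although the ranges overlapped. Its log2 fold change was 3.35 ± 1.27 (SE, edgeR adjusted p = 0.261), and 3.33 ± 0.23 with the block, which did pass (adjusted p = 0.000217). Between PB-4 and ATRA 5 of 8 rose, Pcdh15, Pcdh19, Pcdh1, Pcdh12 and Pcdh7, and with the block Pcdh10 and Pcdh17 did so too. Pcdh10 and Pcdh15 were at 0 with ATRA, so they entered this test only through PB-4.

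Among 17 genes for shedding and cytoplasmic partners, 3 rose and 2 fell with PB-4 against Control. Those that rose were Ptk2b (2.58 ± 0.37), a kinase that protocadherins inhibit in neurons, Cyfip2 (1.76 ± 0.21), a subunit of the WAVE complex for actin branching, and Marcks (0.73 ± 0.20), an actin-binding kinase substrate. Those that fell were Cyfip1 (-0.77 ± 0.21) and Nckap1 (-0.73 ± 0.20), also of the WAVE complex (log2 fold change ± SE, edgeR). With ATRA against Control Marcks fell (-1.30 ± 0.20, adjusted p = 0.0365) and 0 rose. Between PB-4 and ATRA 3 rose (Ptk2b, Marcks and Cyfip2) and Nckap1 fell. With the block 3 rose and 5 fell with PB-4 against Control, 1 rose and 2 fell with ATRA against Control, and 4 rose and 2 fell between PB-4 and ATRA.

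A chosen list of 17 genes that neighbour the clusters on chromosome 18 had a median log2 fold change of -0.15 with PB-4 against Control. The list holds no non-clustered protocadherin and was not a full account of the region. Fchsd1 rose (1.19 ± 0.27, edgeR adjusted p = 0.0205), Hars, the histidyl-tRNA synthetase, fell (-0.86 ± 0.22, adjusted p = 0.0316), and the other 15 did not pass. In the other comparisons 0 of the 17 passed. With the block, Fchsd1 rose and 5 genes (Hars, Ik, Taf7, Wdr55 and Zmat2) fell with PB-4 against Control, Fchsd1 rose with ATRA against Control, and Hars and Wdr55 were lower with PB-4 than with ATRA.

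Some markers of other cell types also differed with PB-4. The summed level of 12 neuronal markers was 367 to 446 CPM with PB-4, 81.0 to 87.4 CPM with ATRA and 103 to 164 CPM in Control, and 5 of 8 tested rose with PB-4 against Control (Tubb3, Syp, Syt1, Eno2 and Rbfox3; 7 with the block), while the neurofilament genes Nefl and Nefm were at 0 in all groups. The sum of 7 fibroblast markers was 335 to 1351 CPM with PB-4, 3.53 to 11.1 CPM with ATRA and 8.41 to 16.5 CPM in Control, with Thy1 at 0 in all groups. Most of the PB-4 sum was Col1a1, at 234, 284 and 1248 CPM, and 4 of 6 tested rose (Col1a1, Col3a1, Lum and Pdgfra), also with the block. The sum of 6 immune markers was 35.5 to 43.7 CPM with PB-4, 4.37 to 7.31 CPM with ATRA and 11.6 to 16.7 CPM in Control, with Cd3e at 0 in all groups. Of the immune markers 1 of 4 tested rose, Lyz2, and 3 did with the block, while Cd68 did not pass in either fit (edgeR adjusted p = 0.379 and 0.114). The sum of 4 endothelial markers was at most 1.22 CPM in any library, and the 1 tested, Pecam1, did not pass without the block but did with it (adjusted p = 0.0478). Of the 9 melanocyte markers 4 fell with PB-4 against Control, and 6 with the block. Over all genes 11.5% rose and 4.59% fell, or 23.1% and 21.3% with the block. Rbfox3, Gap43, Lum and Itgam were at 0 in Control. They could enter the test only through their PB-4 counts, so the shares of tested markers that rose are raised by the filter. The part of these markers in the alpha and beta results was not tested, and in bulk RNA more cells of a type and more RNA per cell cannot be told apart.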

How the data were processed

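B16 total RNA was sequenced in 3 libraries for each of PB-4, ATRA and Control. The table the authors deposited holds whole-number read counts per gene symbol. Per the submitters' processing notes reads were aligned with HISAT2 2.0.4 to GRCm38; the counter, its annotation, its strand setting and its treatment of shared exons are not stated in those sources. Of 46095 rows, 27 whose symbols had turned into dates were left out.

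Each comparison was fitted with edgeR 4.0.16 (TMM factors, robust quasi-likelihood test) on the 6 libraries of its 2 groups, for genes with at least 10 counts in sum, with Benjamini-Hochberg adjustment over all genes and a threshold of 0.05. The standard error is the absolute log2 fold change over the square root of F. CPM used TMM factors over all 9 libraries. Chosen alternatives were size factors of another kind, library totals, DESeq2 1.42.0, limma 3.58.1 voom with quality weights, other filters, all 9 libraries in 1 fit, a replicate block, replicates 1 and 2 alone, and each replicate left out.

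Deviations from the group means of same-numbered libraries correlated at 0.35 to 0.70 (9 pairs, 14891 genes), so by the rule of a correlation above 0.1 for every pair the numbers were taken to pair libraries; the labels give no shared batch. Replicates 1 and 2 of different groups also correlated (0.28 to 0.47), and replicate 3 with replicates 1 and 2 did so negatively (-0.62 to -0.41). Pairs of replicate 1 with replicate 2 thus met the rule too, so it cannot tell whether these replicates pair by number. No 2 libraries of a group agreed within sampling noise. The scripts were tested on simulated data.

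Named genes were the 4 most abundant members per cluster, the C-type isoforms, members past the threshold, and up to 4 genes a direction from each list; further members were named after their values were seen. Members and lists were chosen with earlier results of these data known. Clusters, positions and lengths came from the RefSeq annotation of GRCm38.p6. The small RNA libraries were not used.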

Additional observations from a re-analysis of the deposited data

How the results depend on the processing

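The 4 members higher in PB-4 against Control became 15 with voom weights, 14 with the replicate block and 13 with replicates 1 and 2 alone, and the 0 lower members became 1 with DESeq2, 5 with voom weights, 6 with the block and 6 with replicates 1 and 2. The 3 members higher in PB-4 against ATRA became 6 with DESeq2, 13 with voom weights, 5 without a filter on low counts, 11 with the block and 11 with replicates 1 and 2, and 1 was lower with voom weights. For ATRA against Control 1 member was higher with voom weights, and 1 was lower with DESeq2, 3 with voom weights, 3 with the block and 10 with replicates 1 and 2. Over all genes, the 191 calls for ATRA against Control became 1248 with DESeq2, 5236 with voom weights, 411 without a filter, 424 with all 9 libraries in 1 fit, 3288 with the block and 6457 with replicates 1 and 2; the 3139 for PB-4 against Control became 9129, 8630 and 7461 with voom weights, the block and replicates 1 and 2; and the 2384 for PB-4 against ATRA became 8246, 5821 and 7131. Scaled by library totals, 2673 genes were higher and 489 lower in PB-4 against Control, instead of 2246 and 893. The cause of these moves was not tested.

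With each replicate left out in turn, 0 to 3 members were higher and 0 to 1 lower in PB-4 against Control, 0 to 3 higher in PB-4 against ATRA, and 0 in ATRA against Control; calls over all genes ranged over 1341 to 3440, 1194 to 2761 and 10 to 980 in these comparisons. The log2 ratio of the summed CPM ranged over 1.94 to 2.56 (alpha), -0.25 to 0.18 (beta) and 0.01 to 0.34 (gamma) for PB-4 over Control. Log2 fold changes that changed sign ranged, for ATRA over Control, over -0.36 to 0.71 (Pcdha10), -3.44 to 0.28 (Pcdha9), -0.37 to 0.25 (Pcdhb5), -0.046 to 0.52 (Pcdhb11), -0.14 to 0.58 (Pcdhgc4) and -0.41 to 1.11 (Pcdhb8); for PB-4 over Control, over -0.79 to 0.26 (Pcdhga5); and for PB-4 over ATRA, over -0.52 to 0.14 (Pcdhb17), -0.44 to 0.16 (Pcdhga6), -0.43 to 0.63 (Pcdhac1), -0.72 to 0.38 (Pcdhgc3) and -0.052 to 0.82 (Pcdhgc5).

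Among 795 single-gene values under the alternatives, 693 kept direction and side of the threshold, 48 passed it in addition, 29 no longer did and 25 changed sign, with neither value past the threshold. With no single replicate left out, Pcdhac1 (-0.37) and Pcdhgc5 (-0.081) changed sign with replicates 1 and 2 alone and Pcdhgc3 (0.065) with voom weights, all in PB-4 against ATRA. Low depth limits the tested alpha and C-type isoforms, with 4 to 233 counts a group.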
